A study of Rattus norvegicus with 16 samples.

Results

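Gene expression in overloaded rat plantaris muscle was compared between day 7 after surgery and its neighbouring time points, days 3 and 28. For each gene the mean of the 4 day 7 arrays was set against the average of the means of the 4 day 3 and the 4 day 28 arrays. The comparison covered 14557 genes, each read from a transcript cluster with exactly 1 gene symbol, and used the cluster with the highest mean for the 234 genes that had several. The table held 36685 transcript clusters in all. The 16 arrays measured plantaris muscle of Sprague Dawley rats, described as retired breeders, 4 each at days 0, 3, 7 and 28. Day 0 was control muscle with no overload. At days 3, 7 and 28 the Achilles tendons of both legs had been removed, which disables the gastrocnemius and soleus and shifts their load to the plantaris (synergist ablation). No group had a sham operation, so the response to load and the response to surgery cannot be told apart. All other features of the animals were labelled alike in the 4 groups. Replicates were numbered without a statement that they came from separate animals, so the p-values reflect the spread among these samples alone, and that spread may be technical.

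An overloaded muscle passes through inflammation and cell division, then through the activity of satellite cells, the muscle stem cells that turn into myoblasts and fuse with fibres or with each other. New and regenerating fibres first make embryonic forms of the contractile proteins, and fibres without mature nerve contact make the fetal form of the acetylcholine receptor. Fibroblasts lay down collagen and proteoglycans around the fibres in the same period. Placing day 7 between an early and a late time point asks which of these programmes stood highest or lowest in the middle of the course.

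Values were log2 expression per transcript cluster, with medians over the tested genes of 4.65 to 4.71 on the day 3 arrays, 4.54 to 4.59 on the day 7 arrays, 4.42 to 4.49 on the day 28 arrays and 4.16 to 4.24 on the control arrays. Each difference is a log2 difference between means with its standard error in limma (4 arrays per day), and a gene is said to be higher or lower where its Benjamini-Hochberg adjusted p was under 0.05. Dim clusters are compressed on this scale, so differences between a bright mean and a dim one are lower bounds in size, with dim taken as under 3.30, the median over all clusters. The fast-fibre contractile genes, which mark plantaris fibres, had a mean level of 12.24 to 12.56 on the day 7 arrays. Day 7 replicate 2 stood apart from the other day 7 arrays. The neutrophil and early monocyte markers had a mean level of 4.15 on it against 3.05 to 3.35 on the other day 7 arrays. S100a9, a calcium-binding protein of neutrophils, was at 6.64 there against 2.60 to 2.90, and the neutrophil collagenase Mmp8 was at 5.07 against 1.56 to 1.87 (both chosen after their values were seen). The same array had the lowest day 7 values of Myh3 and Mymk described below. Its part in the results is given by leaving it out.

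At day 7, 433 genes were higher than the mean of days 3 and 28 (2.97% of those tested) and 275 were lower (1.89%), together 708 genes (4.86%). An unadjusted p under 0.05 was found for 2713 genes. A log2 difference of at least 1 was reached by 113 of the higher and 38 of the lower genes, and the median difference over all genes was -0.03. These counts mix shapes. Of the 433 higher genes, 178 were above day 3 and above day 28, each tested alone, 173 were above day 28 with no call against day 3, 79 were above day 3 with no call against day 28, and 3 were above day 28 but below day 3. Of the 275 lower genes, 37 were below both days, 148 were below day 3 only, 83 were below day 28 only, and 7 were below day 3 but above day 28. Over all genes, 179 stood above both days (1.23%) and 37 below both (0.254%). All 4 day 7 arrays lay above all day 3 and day 28 arrays in 203 genes (1.39%) and below them in 102 (0.701%). The counts moved with single arrays. Without day 7 replicate 4, 284 genes were higher and 146 lower, and without day 7 replicate 3, 160 were lower. Without day 7 replicate 2 the counts were 396 higher, 223 lower, 186 above both days and 44 below both. The 37 genes below both days became 22 without day 3 replicate 2 and 24 without day 28 replicate 2 or replicate 3. In whole muscle, more or fewer cells of a type and more or less RNA per cell cannot be told apart.

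**Figure D1:**
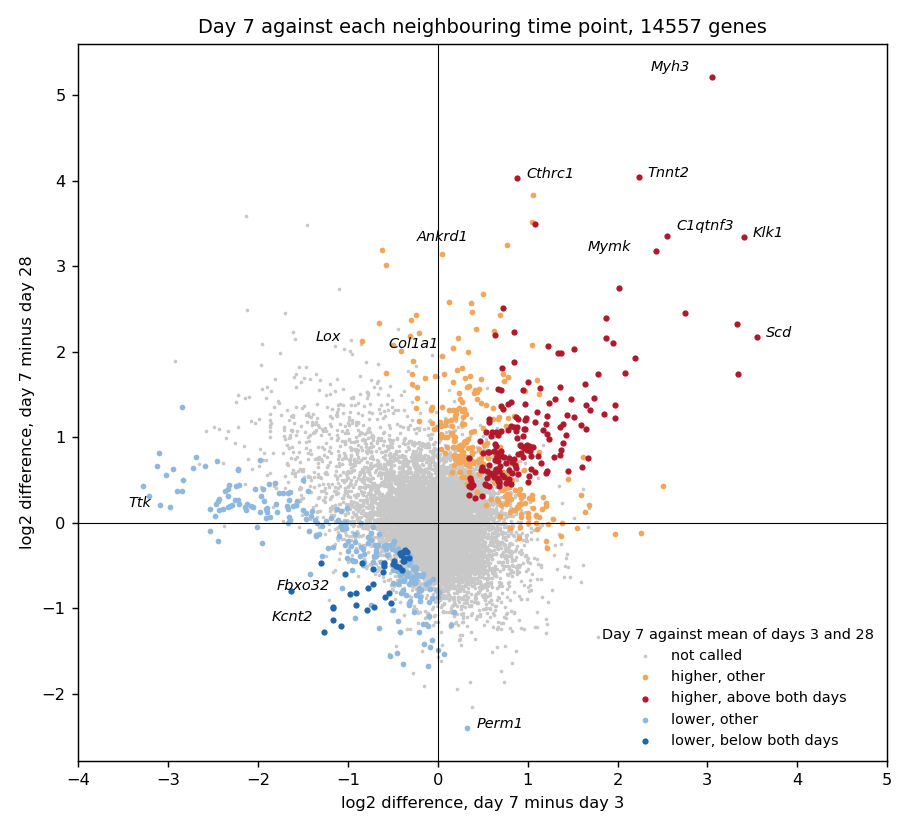
Each point is 1 of the 14557 genes, placed by its log2 difference at day 7 from day 3 (horizontal) and from day 28 (vertical), and coloured by the call against the mean of both days. The 178 dark red genes at the upper right were above both days, the 37 dark blue genes at the lower left were below both, and pale points such as Ankrd1 or Ttk passed through 1 neighbouring day.

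The embryonic contractile genes Myh3 and Tnnt2 and the fusion gene Mymk were among the 12 largest rises beyond both days. Myh3, the embryonic myosin heavy chain, was measured at 11.20, 9.75, 11.41 and 11.86 on day 7 replicates 1 to 4, at 8.61, 7.77, 7.55 and 8.10 on day 3, at 6.05, 6.14, 5.40 and 5.75 on day 28 and at 8.10, 8.21, 8.77 and 8.72 on day 0. Every day 7 array lay above every array of the other days, and every day 28 array lay below every day 0 array. Myh3 was 4.13 ± 0.30 (SE), adjusted p = 6.10e-07, higher than the mean of days 3 and 28, the largest rise of all genes beyond both days. Its difference from day 3 was 3.05, from day 28 5.22 and from day 0 2.61 (SE 0.35 each), and the difference of day 28 from day 0 was -2.61 with adjusted p = 1.13e-04. Without day 7 replicate 2 its contrast was 4.57. Tnnt2, the troponin T of heart and embryonic muscle, was 9.78, 8.94, 8.97 and 10.001 on day 7, 6.66, 6.96, 7.33 and 7.82 on day 3 and 6.10, 5.09, 5.19 and 5.15 on day 28, with no overlap. Its rise was 3.14 ± 0.28 (SE), adjusted p = 1.07e-05. Unlike Myh3, Tnnt2 had already risen at day 3 (1.75 ± 0.32 against day 0, adjusted p = 2.55e-04), and at day 28 it was at the day 0 level within error (-0.05 ± 0.32). Myom3, a protein of the sarcomere's M band, ranged over 7.56 to 8.53 on day 7 against 6.18 to 6.91 on day 3 and 6.87 to 7.37 on day 28 and rose by 1.37 ± 0.18. These 3 genes were the called members among 9 measured embryonic and developmental contractile genes. Of the 9, 3 were higher (2.97% of all genes were) and 0 lower (1.89%), with a median of 0.51.

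Mymk encodes myomaker, the membrane protein that lets myoblasts fuse. It was measured at 6.69, 5.20, 6.08 and 6.65 on day 7 replicates 1 to 4, at 3.88, 3.60, 3.12 and 4.31 on day 3 and at 3.25, 2.59, 3.51 and 2.55 on day 28. The lowest day 7 array, replicate 2, was above the highest day 3 array, and the day 28 arrays lay around the day 0 range of 2.58 to 2.95. The rise was 2.81 ± 0.27 (SE), adjusted p = 1.38e-05, and a lower bound, since its day 28 mean of 2.97 lies in the dim range. Myf5, a transcription factor that marks muscle precursors, was 6.57 to 7.50 on day 7, 5.96 to 6.41 on day 3 and 5.54 to 6.0 on day 28, with day 7 above both, and rose by 0.89 ± 0.17 (adjusted p = 0.00513). Myod1, which commits cells to the muscle lineage, was higher by 0.73 ± 0.20 with adjusted p = 0.0411, a call that was lost without any 1 of 10 arrays. These were replicate 1 of day 0 (0.73), replicates 1 (0.75), 2 (0.68) and 3 (0.72) of day 3, replicates 1 (0.74), 2 (0.77) and 4 (0.55) of day 7, and replicates 2 (0.72), 3 (0.75) and 4 (0.64) of day 28. Myog, which drives the differentiation of myoblasts, did not follow. Its contrast was 0.14 ± 0.23 with adjusted p = 0.827, and at day 7 it was 0.91 ± 0.27 lower than at day 3 and 1.18 ± 0.27 higher than at day 28. Of 16 myoblast fusion and myogenic regulators 4 were higher (2.97% of all genes were) and 0 lower (1.89%), with a median of 0.25. Mef2c, a transcription factor of muscle differentiation, was the other called member (0.37 ± 0.09), with 0.80 against day 3 and -0.06 against day 28 (adjusted p = 0.777). It lost its call without day 7 replicate 1 (0.38), 3 (0.33) or 4 (0.36), under cyclic loess (0.30) and in a fit of the 12 arrays alone (0.37). Without day 7 replicate 1 or replicate 4, Mymk and Myf5 alone were called.

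**Figure D2:**
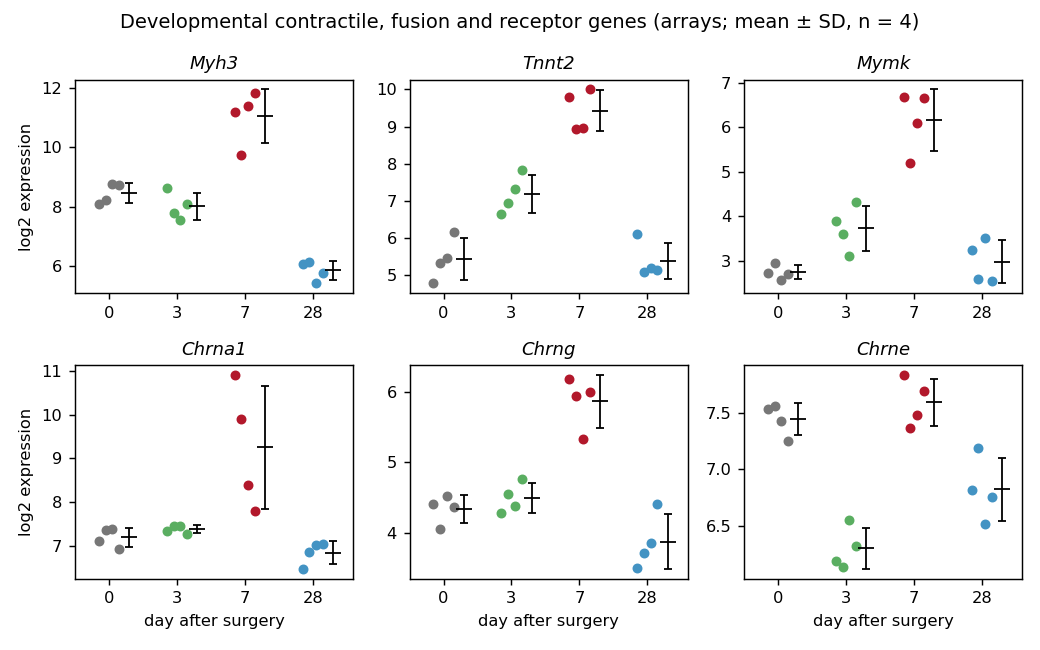
Log2 expression by day after surgery for Myh3, Tnnt2, Mymk, Chrna1, Chrng and Chrne, 1 point per array with the mean ± SD of 4 arrays beside them. All day 7 points lie above all day 3 and day 28 points in each panel, and the 4 day 7 points of Chrna1 spread from 7.79 to 10.90.

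Subunits of the muscle acetylcholine receptor, the channel through which nerve signals excite the fibre, were the only called members among the acetylcholine receptor and junction genes. Of 10 measured, 4 were higher (2.97% of all genes were), all 4 above both days (1.23%), and 0 were lower (1.89%), with a median of 0.36. Chrna1, the alpha subunit, was 10.90, 9.90, 8.40 and 7.79 on day 7 replicates 1 to 4, 7.34, 7.46, 7.46 and 7.27 on day 3, 6.47, 6.87, 7.01 and 7.05 on day 28 and 7.11, 7.37, 7.40 and 6.94 on day 0. The day 7 arrays did not overlap the others but spread widely among themselves, and replicate 4 lay closest to day 3. The rise was 2.13 ± 0.38 (SE), adjusted p = 0.00305. This SE rests on 1 spread shared by all days, whereas the SD was 1.41 on day 7, 0.09 on day 3 and 0.26 on day 28. It thus understates the uncertainty of the day 7 mean. Left out in turn, the day 7 arrays gave rises from 1.58 to 2.62. Chrng, the gamma subunit of the fetal receptor, was 6.19, 5.94, 5.33 and 6.01 on day 7, 4.28, 4.55, 4.38 and 4.76 on day 3 and 3.51, 3.72, 3.86 and 4.41 on day 28, a narrower set with no overlap. It rose by 1.68 ± 0.18 (SE), adjusted p = 3.34e-05. Chrne, the epsilon subunit that replaces gamma in the adult receptor, was 7.83, 7.37, 7.48 and 7.69 on day 7, 6.19, 6.14, 6.55 and 6.32 on day 3, 6.82, 7.19, 6.51 and 6.76 on day 28 and 7.54, 7.56, 7.43 and 7.25 on day 0. Its rise over both days was 1.03 ± 0.13 (adjusted p = 2.44e-04), but the day 7 arrays were at the level of day 0. Its difference from day 0 was -1.15 ± 0.15 at day 3 and -0.62 ± 0.15 at day 28, both called, and 0.15 ± 0.15 at day 7 with adjusted p = 0.506. Chrnb1, the beta subunit, followed the same course at a smaller size, 7.42 to 8.03 on day 7, 6.99 to 7.23 on day 3, 7.22 to 7.34 on day 28 and 7.64 to 7.93 on day 0, with a rise of 0.64 ± 0.11. Rapsn (0.08 ± 0.12) and Dok7 (0.30 ± 0.17), which cluster the receptor at the junction, did not pass the test.

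The promoters of these 4 subunit genes are shown because all 4 stood above both days at day 7. Against day 0 their courses differed, with Chrna1 (2.04) and Chrng (1.53) higher at day 7 and Chrne (0.15) and Chrnb1 (0.05) not called. Receptor genes are also textbook targets of the myogenic factors, which bind E-boxes of the form CANNTG. Each window is the RefSeq sequence on the gene's strand, 5′ to 3′, with 250 bases before and 50 bases from the annotated start on, and capitals mark CAGCTG, an E-box that reads the same on both strands.
Chrna1 (GRCr8 chr3:78877304-78877603, minus strand): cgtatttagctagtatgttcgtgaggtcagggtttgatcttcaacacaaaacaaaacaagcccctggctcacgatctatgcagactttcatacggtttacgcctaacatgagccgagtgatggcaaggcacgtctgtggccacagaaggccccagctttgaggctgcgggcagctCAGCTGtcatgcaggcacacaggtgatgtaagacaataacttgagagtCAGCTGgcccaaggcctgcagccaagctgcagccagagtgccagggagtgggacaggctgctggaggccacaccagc
Chrnb1 (GRCr8 chr10:55015058-55015357, minus strand): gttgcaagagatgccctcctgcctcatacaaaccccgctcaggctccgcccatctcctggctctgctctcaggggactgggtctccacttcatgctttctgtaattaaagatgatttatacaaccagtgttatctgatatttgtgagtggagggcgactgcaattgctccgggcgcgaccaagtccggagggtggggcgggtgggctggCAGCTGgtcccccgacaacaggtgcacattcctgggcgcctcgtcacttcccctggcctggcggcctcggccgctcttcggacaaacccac
Chrne (GRCr8 chr10:55834105-55834404, minus strand): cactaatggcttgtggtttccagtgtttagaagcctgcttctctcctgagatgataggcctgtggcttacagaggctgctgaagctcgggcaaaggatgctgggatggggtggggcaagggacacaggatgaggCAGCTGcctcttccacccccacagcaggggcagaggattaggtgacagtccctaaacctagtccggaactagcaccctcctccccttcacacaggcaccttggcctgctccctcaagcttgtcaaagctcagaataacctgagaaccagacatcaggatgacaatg
Chrng (GRCr8 chr9:95325734-95326033, plus strand): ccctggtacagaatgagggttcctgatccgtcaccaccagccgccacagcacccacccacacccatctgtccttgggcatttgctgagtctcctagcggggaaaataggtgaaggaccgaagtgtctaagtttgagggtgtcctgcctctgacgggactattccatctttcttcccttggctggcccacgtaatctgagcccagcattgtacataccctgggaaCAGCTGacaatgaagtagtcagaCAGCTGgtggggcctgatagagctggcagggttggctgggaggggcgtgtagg
CAGCTG began at positions -75 and -27 from the start in Chrna1, at -41 in Chrnb1, at -116 in Chrne and at -26 and -3 in Chrng. It was found in 4134 of all 27457 RefSeq windows of this length (15.1%), in 1868 of 11787 windows of tested genes (15.8%), in 31 of 137 windows of genes above both days (22.6%) and in 4 of 30 windows of genes below both (13.3%). The looser pattern CANNTG was in 71.6% of all windows, 68.0% of those of tested genes, 63.5% of those of genes above both days and 60% of those of genes below both. Myf5, also above both days, had no CAGCTG in its window. These are matches of letters, and no binding was measured.

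The other large rises beyond both days came from genes of varied function. Klk1, tissue kallikrein, a protease that releases kinins, was 6.03, 4.97, 4.39 and 4.93 on day 7 replicates 1 to 4, against 1.53, 1.58, 1.79 and 1.80 on day 3 and 1.87, 1.95, 1.44 and 1.69 on day 28. It was near the bottom of the measured range at days 0, 3 and 28 alike, so its rise of 3.37 ± 0.22 (SE), adjusted p = 1.25e-07 is a lower bound. C1qtnf3, a secreted protein of the C1q and TNF-related family, was 7.81, 7.20, 7.89 and 7.54 on day 7, 4.61, 5.27, 4.87 and 5.47 on day 3 and 4.19, 4.12, 4.48 and 4.24 on day 28, with a wide gap between the lowest day 7 and the highest other array. Its rise was 2.95 ± 0.16 (SE), adjusted p = 2.31e-08. Scd, stearoyl-CoA desaturase, which makes monounsaturated fatty acids, was 9.77, 8.18, 8.42 and 8.32 on day 7, 4.61, 5.12, 5.01 and 5.75 on day 3 and 6.07, 7.71, 5.74 and 6.50 on day 28. Day 7 replicate 1 was the highest, and the others lay close above day 28 replicate 2. Scd rose by 2.86 ± 0.35 (SE), adjusted p = 1.45e-04, and by 2.49 without day 7 replicate 1. Atp1b4, a muscle protein related to the beta subunits of the sodium pump, rose by 2.54 ± 0.24, Fndc3c1, named for its fibronectin type III domains, by 2.60 ± 0.35, and Slc51a, part of an organic solute transporter, by 2.38 ± 0.31. Their day 7 arrays spread from 7.17 to 9.01, from 3.67 to 5.97 and from 4.66 to 7.05 in turn, and the Fndc3c1 and Slc51a differences are lower bounds.

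Calcium handling genes of the sarcoplasmic reticulum were among them. Sln, sarcolipin, an inhibitor of the calcium pump, was 11.57 to 12.40 on day 7, 10.80 to 11.13 on day 3, 7.90 to 9.12 on day 28 and 8.58 to 9.29 on day 0, and rose by 2.29 ± 0.21 with adjusted p = 1.35e-05. Casq2, the calsequestrin of heart and slow fibres, was 11.05 to 12.07 on day 7, 10.06 to 10.55 on day 3 and 8.84 to 9.96 on day 28 and rose by 1.65 ± 0.21. Of 10 slow-fibre contractile genes it was the 1 that was higher (2.97% of all genes were), and 2 were higher without day 3 replicate 1. Myl3, the slow ventricular myosin light chain on the same list, was lower (-0.73 ± 0.15), through its distance from day 28 (-1.53) rather than day 3 (0.06). Some further genes were picked after their values were seen. Capn6, a calpain without protease activity that is made in embryonic muscle, rose by 2.03 ± 0.18, Clrn1 by 2.06 ± 0.30, Mmp11, a matrix metalloprotease, by 1.63 ± 0.26, Tac3, the precursor of neurokinin B, by 1.60 ± 0.23 and Mybph, a myosin-binding protein, by 1.35 ± 0.21.

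Imprinted genes, expressed from the copy of 1 parent and active in fetal growth, made up most of the called growth factor and imprinted growth genes. Of 18 measured, 8 were higher (2.97% of all genes were), 6 of them above both days (1.23%), and 0 were lower (1.89%), with a median of 0.31. Cdkn1c, a cell cycle inhibitor, was 6.78, 6.10, 6.51 and 6.88 on day 7 replicates 1 to 4, 5.11, 4.70, 4.87 and 4.21 on day 3, 5.10, 5.59, 5.48 and 5.03 on day 28 and 4.67, 4.31, 3.74 and 4.69 on day 0. Day 7 stood above all other arrays, with a rise of 1.56 ± 0.20 (SE), adjusted p = 2.77e-04. Dlk1, a Notch-related membrane protein, was 4.89 to 6.15 on day 7 against 3.70 to 4.41 on day 3 and 3.70 to 4.75 on day 28 and rose by 1.51 ± 0.24. H19, a long noncoding RNA of high level in muscle, was 12.47, 11.87, 12.32 and 12.48 on day 7, 11.43, 11.37, 11.49 and 11.39 on day 3 and 11.66, 11.52, 11.67 and 11.59 on day 28. Although small, its rise of 0.77 ± 0.12 (SE), adjusted p = 0.00131, left no overlap. Zim1, an imprinted zinc finger gene, was 6.33, 5.10, 6.29 and 6.72 on day 7, 3.68, 3.16, 3.81 and 3.81 on day 3 and 5.08, 5.31, 6.03 and 6.32 on day 28. It passed the contrast (1.46 ± 0.26) through its low day 3 values alone, and day 7 differed from day 28 by 0.43 ± 0.30 with adjusted p = 0.388. Gnas, a complex imprinted locus that encodes the stimulatory G protein, had the largest value (2.83 ± 0.35), but its 2 clusters disagreed. The cluster with the higher mean gave 2.83 and was dim on days 0, 3 and 28 but not on day 7 (5.47). The other cluster gave 0.24 and was dim on every day. The mean of both clusters gave 1.54, so the value for the gene is uncertain. Igf1 and Igf2 had no cluster of their own and were not analysed here.

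Matrix genes formed the broadest group of rises. Of 19 fibrillar collagens and matrix glycoproteins 15 were higher (2.97% of all genes were) and 0 lower (1.89%). Their median was 0.74 against -0.03 over all genes. Most of them stood near their day 3 level. Against day 3 alone 3 were higher (6.02% of all genes were) and 1 lower (9.23%), against day 28 alone 16 were higher (9.38%) and 1 lower (8.24%), and 2 were above both days. Those 2 were Cthrc1 and Postn. Cthrc1, a secreted glycoprotein with a collagen-like stretch, was 8.46, 7.53, 7.29 and 7.29 on day 7 replicates 1 to 4, 6.61, 6.96, 6.52 and 6.97 on day 3, 3.78, 3.77, 3.97 and 2.93 on day 28 and 2.49, 1.72, 2.90 and 2.28 on day 0. Replicate 1 was the highest and the remaining day 7 arrays lay just above day 3, so the rise of 2.46 ± 0.25 (SE), adjusted p = 1.91e-05 came mostly from day 28. Its difference from day 3 was 0.88 ± 0.28 with adjusted p = 0.0446. Postn, periostin, was 10.77 to 11.54 on day 7, 10.06 to 10.95 on day 3 and 8.38 to 9.04 on day 28, with overlap between days 3 and 7, and rose by 1.62 ± 0.17. Col1a1, the alpha 1 chain of type I collagen, was 11.21 to 12.24 on day 7, 10.88 to 11.97 on day 3 and 9.51 to 10.11 on day 28. Its contrast was 1.16 ± 0.19, with 0.33 ± 0.22 against day 3 (adjusted p = 0.386), and it was not called when the neighbouring days were weighted by their distance in time (0.60).

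Above both days stood 4 of 18 proteoglycan and hyaluronan genes, 2 of 20 matrix metalloproteases and inhibitors and 3 of 20 tendon and cartilage genes (1.23% of all genes were). In the contrast itself 2.97% of all genes were higher and 1.89% lower, for comparison with the list counts that follow. Bgn, biglycan, was 11.53, 11.14, 11.41 and 11.66 on day 7, 10.43, 10.83, 10.80 and 11.11 on day 3, 9.26, 9.16, 9.20 and 9.34 on day 28 and 7.38, 7.74, 7.90 and 8.26 on day 0. The lowest day 7 array was just above the highest day 3 array, and day 28 stood well below both and above day 0. Bgn rose by 1.42 ± 0.15 (SE), adjusted p = 4.22e-05. Aspn, asporin, rose by 1.26 ± 0.15, and of 18 proteoglycan and hyaluronan genes 5 were higher and 0 lower (median 0.27). Mmp2, a gelatinase, was 10.82, 10.51, 10.26 and 10.48 on day 7, 9.35, 9.69, 9.67 and 9.48 on day 3, 9.31, 9.47, 9.45 and 9.46 on day 28 and 7.86, 7.65, 7.49 and 7.65 on day 0. Days 3 and 28 held about the same level, and day 7 was above both by 1.03 ± 0.11 (SE), adjusted p = 5.76e-05. Mmp14, the membrane protease that activates Mmp2, rose by 1.11 ± 0.16 to 8.42 to 9.14 on day 7. Of 20 matrix metalloproteases and inhibitors 3 were higher and 0 lower (median 0.32), and 5 were higher without day 3 replicate 4. Of 20 tendon and cartilage genes 7 were higher and 0 lower (median 0.43). Egr1, a transcription factor induced by load in tendon cells among many other cells, was 8.62 to 9.80 on day 7, 7.51 to 8.15 on day 3 and 6.80 to 7.71 on day 28 and rose by 1.66 ± 0.22, and Cilp, a matrix protein of cartilage, rose by 1.32 ± 0.19. Scx (0.49 ± 0.19) and Tnmd (0.38 ± 0.38), the markers most particular to tendon in textbooks, did not pass. Of 11 lysyl oxidase and collagen-modifying genes 3 were higher and 0 lower (median 0.23), and 0 stood above both days. P4ha3, a prolyl hydroxylase subunit, passed the contrast (1.59 ± 0.19) without a call against day 3 (0.51 ± 0.22, adjusted p = 0.14), and Lox, which crosslinks collagen, was 9.53 to 10.28 on day 3, 8.67 to 9.29 on day 7 and 6.84 to 6.90 on day 28. Lox thus passed the contrast (0.64 ± 0.16) from below its day 3 level, and the call was lost without day 7 replicate 1 (0.54), 2 (0.63) or 4 (0.64). Of 17 fibroblast and progenitor markers, 5 were higher and 0 lower, and 3 were higher without day 7 replicate 4. Their mean level was 8.08 to 8.24 on day 7, 8.01 to 8.31 on day 3, 7.19 to 7.41 on day 28 and 6.27 to 6.33 on day 0. Fap, fibroblast activation protein, rose above both days (0.80 ± 0.10), and Pdgfra did not pass (0.16 ± 0.11). Their part in the matrix result was not tested.

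**Figure D3:**
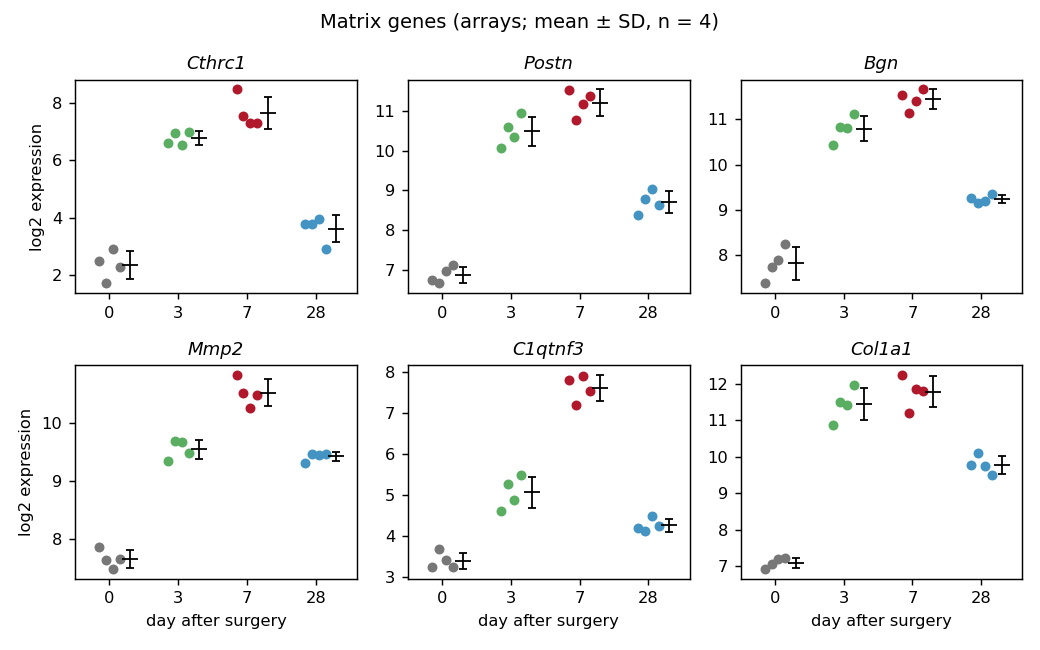
Log2 expression by day after surgery for Cthrc1, Postn, Bgn, Mmp2, C1qtnf3 and Col1a1, 1 point per array with the mean ± SD of 4 arrays beside them. Day 7 points are above all day 3 points for Cthrc1, Bgn, Mmp2 and C1qtnf3 and overlap them for Postn and Col1a1.

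Tgfb3, a transforming growth factor, was 7.66 to 8.03 on day 7, 6.81 to 7.09 on day 3 and 7.04 to 7.48 on day 28 and rose by 0.73 ± 0.11. Ltbp3, which holds latent TGF-beta in the matrix, rose by 0.74 ± 0.14. Of 26 TGF-beta and BMP pathway genes 3 were higher (2.97% of all genes were) and 0 lower (1.89%), with a median of 0.12. Dkk3, a secreted protein of the Dickkopf family, rose by 1.32 ± 0.20. Ankrd1, a sarcomere protein that responds to stretch, shows how a plateau can pass the contrast. It was 12.08, 12.26, 11.55 and 12.16 on day 7, 11.97, 11.99, 11.70 and 12.19 on day 3 and 9.12, 8.48, 9.15 and 8.71 on day 28. Days 3 and 7 overlapped fully (difference 0.05 ± 0.18, adjusted p = 0.908), day 28 (8.48 to 9.15) was near day 0 (9.002 to 9.49), and the contrast was 1.60 ± 0.16.

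Fewer genes stood below both neighbouring days. Fbxo32, the ubiquitin ligase atrogin-1 of muscle atrophy, was 9.79, 9.92, 9.42 and 9.10 on day 7 replicates 1 to 4, 10.56, 9.95, 10.96 and 10.38 on day 3, 10.56, 10.27, 10.17 and 10.52 on day 28 and 10.72, 10.65, 10.71 and 10.58 on day 0. The highest day 7 array was just below the lowest day 3 array and below all day 28 and day 0 arrays. Its contrast was -0.87 ± 0.17 (SE), adjusted p = 0.00655, and its difference from day 0 was -1.11 ± 0.20 with adjusted p = 3.14e-04. Trim63, the other classical atrophy ligase, did not pass (-0.40 ± 0.12, adjusted p = 0.0704). Atf4, a transcription factor of the amino acid and stress response, was 9.97, 10.26, 10.16 and 10.13 on day 7, 10.70, 10.65, 10.80 and 10.83 on day 3 and 10.98, 10.80, 10.53 and 10.54 on day 28. The groups did not overlap, and the contrast was -0.60 ± 0.10 (SE), adjusted p = 0.00224. Against day 0 the Atf4 difference was -0.41 with adjusted p = 0.0136. Insig1, which keeps the regulator of cholesterol synthesis genes in the endoplasmic reticulum, was 6.50, 6.60, 6.50 and 6.37 on day 7, 7.46, 7.82, 7.87 and 8.03 on day 3, 6.88, 7.01, 6.76 and 7.21 on day 28 and 6.52, 6.92, 6.49 and 6.27 on day 0. Insig1 was raised at day 3 (1.25 against day 0), not called against day 0 at day 28 (0.42, adjusted p = 0.103), and at day 7 differed from day 0 by -0.05, with a contrast of -0.89 ± 0.13. Among 15 cholesterol and lipid synthesis genes 4 were lower (1.89% of all genes were) and 1 was higher (2.97%), with a median of -0.27. Scd was the higher one, and the lower ones included Insig1, Sqle and Hsd17b7. Sqle, an enzyme of sterol synthesis (-0.998 ± 0.27), lost its call without day 3 replicate 2 (-0.97) or 4 (-0.88), without any 1 of the day 7 arrays (-0.96, -0.996, -1.10 and -0.94 in order) and without day 28 replicate 1 (-0.998), 3 (-0.999) or 4 (-0.92). Hsd17b7, another enzyme of the pathway (-0.66 ± 0.16), lost it without day 7 replicate 3 (-0.51) or 4 (-0.62). Both passed through day 3 alone (-2.37 for Sqle and -1.004 for Hsd17b7), and against day 28 Sqle differed by 0.37 (adjusted p = 0.476) and Hsd17b7 by -0.33 (adjusted p = 0.247). The lower count fell to 2 without day 3 replicate 2 or day 7 replicate 1, 2 or 4, and to 1 without day 7 replicate 3, when only Insig1 was called.

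The other largest falls without overlap of arrays were Kcnt2, a sodium-activated potassium channel (3.83 to 4.16 on day 7, 4.78 to 5.39 on day 3 and 4.44 to 5.30 on day 28, contrast -1.08 ± 0.17), Il20rb, a receptor subunit for cytokines of the interleukin 20 family (-0.90 ± 0.16), and Mthfd2l, a mitochondrial enzyme of folate metabolism (-0.85 ± 0.16). Srsf7, a splicing factor (-0.82 ± 0.17), Echdc1 (-0.73 ± 0.15), Zc3h8 (-0.73 ± 0.13) and Nrde2 (-0.68 ± 0.12) followed. At day 7 Il20rb differed from day 0 by 0.08 and Kcnt2 by -0.43 ± 0.19 (adjusted p = 0.101), and Mthfd2l (-1.31), Echdc1 (-0.95) and Nrde2 (-1.02) were below it. Ahsp, the haemoglobin chaperone, had the largest fall among genes whose arrays did not overlap (-1.15 ± 0.27, adjusted p = 0.0216) but lost its call without day 7 replicate 3 (-0.96) or 4 (-1.17). Zfp472 (-0.94 ± 0.23) lost its call without day 7 replicate 2 (-0.79) or 3 (-0.90), and Cmss1 (-0.91 ± 0.21) without day 7 replicate 2 (-0.82). Of 8 red blood cell markers 1 was lower (1.89% of all genes were) and 0 higher (2.97%). Without day 3 replicate 3 or 4, 2 of the markers were lower, and without day 7 replicate 3 or 4, 0 were. Their mean level was 4.13 to 4.59 on day 7, 4.58 to 6.20 on day 3, 4.63 to 4.97 on day 28 and 3.61 to 4.07 on day 0.

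**Figure D4:**
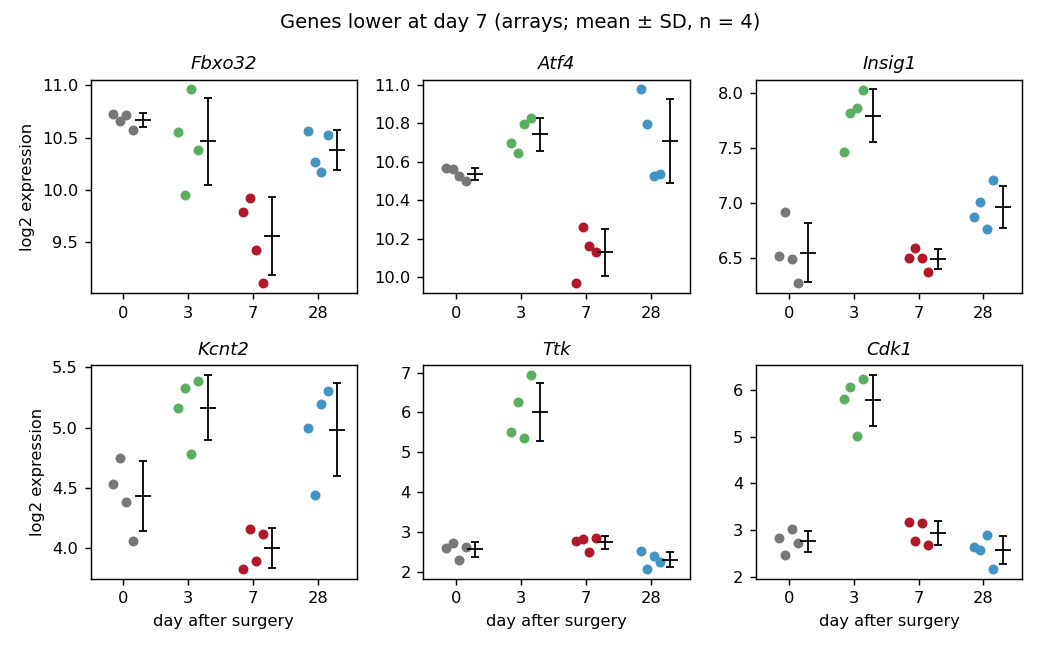
Log2 expression by day after surgery for Fbxo32, Atf4, Insig1, Kcnt2, Ttk and Cdk1, 1 point per array with the mean ± SD of 4 arrays beside them. In the first 4 genes day 7 lies below all day 3 and day 28 points, and in Ttk and Cdk1 only the day 3 points stand high.

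Cell division genes made up the largest block of lower calls, and nearly all of it reflected day 3. Of 21 mitosis genes 12 were lower (1.89% of all genes were) and 0 higher (2.97%), with a median of -0.87. Against day 3 alone all 21 were lower (9.23% of all genes were), and against day 28 alone 5 were higher (9.38%) and 1 was lower (8.24%). Ttk, a kinase of the spindle checkpoint, was 2.77, 2.83, 2.51 and 2.86 on day 7 replicates 1 to 4, 5.51, 6.26, 5.37 and 6.94 on day 3, 2.52, 2.07, 2.39 and 2.24 on day 28 and 2.61, 2.73, 2.31 and 2.62 on day 0. Only day 3 stood apart, and at day 7 Ttk differed from day 0 by 0.17 ± 0.25 (adjusted p = 0.65). Its contrast was -1.42 ± 0.22 (SE), adjusted p = 9.14e-04. Cdk1, the kinase that starts mitosis, was 3.17, 2.77, 3.15 and 2.67 on day 7, 5.82, 6.06, 5.01 and 6.24 on day 3 and 2.64, 2.58, 2.90 and 2.16 on day 28, with a contrast of -1.24 ± 0.20. Levels on days 0, 7 and 28 are in the dim range for both genes, so the differences of day 7 from day 3 (-3.28 for Ttk and -2.84 for Cdk1) are lower bounds in size. Bub1, another checkpoint kinase, was the single gene of the list below both days (4.06 to 5.05 on day 7, 4.76 to 5.65 on day 28, contrast -1.22 ± 0.20). The mean level of the mitosis genes was 3.79 to 3.90 on day 7, 5.58 to 6.55 on day 3, 3.31 to 3.58 on day 28 and 3.35 to 3.47 on day 0. Without the dimmest 50% of genes only 1 mitosis gene was called, but that setting dropped dim genes such as Ttk and Cdk1 from the fit. Both kept their call in all 28 alternatives that tested them. Of 26 DNA replication genes 10 were lower (1.89% of all genes were) and 0 higher (median -0.46), and 24 were lower against day 3 alone (9.23%). Cdc45, a part of the replication helicase, was among them (-1.01 ± 0.22). The 10 became 5 without day 7 replicate 1 or 3 and 6 without day 7 replicate 2.

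Of 26 T cell and natural killer markers 3 were higher (2.97% of all genes were) and 1 was lower (1.89%), with a median of 0.44. Cd28, a co-stimulatory receptor of T cells, was 7.12, 6.14, 6.67 and 6.20 on day 7 replicates 1 to 4, 5.19, 4.76, 4.97 and 4.42 on day 3 and 4.97, 5.46, 5.05 and 5.38 on day 28. Day 7 lay above both with no overlap, and the rise was 1.51 ± 0.22 (SE), adjusted p = 6.48e-04. Cd27, another co-stimulatory receptor, lost its call without day 7 replicate 1 (0.79) or 3 (0.97), and Cd4 without day 7 replicate 4 (0.73). Cd4 had no call against day 3 (0.27, adjusted p = 0.471). Cd8a, a co-receptor chain and the lower member (-0.75 ± 0.19), lay between its neighbouring days. At day 7 it was at -2.84 against day 3, 1.35 against day 28 and 1.54 against day 0, all called. Its call in the contrast was lost without day 3 replicate 2 (-0.68) or 4 (-0.71), day 7 replicate 2 (-0.66), 3 (-0.78) or 4 (-0.69), or day 28 replicate 2 (-0.71) or 4 (-0.73). Cd3e (0.72 ± 0.26) and Cd3g (0.51 ± 0.32) of the T cell receptor complex did not pass. The higher count was 2 without day 7 replicate 4 and 5 without day 7 replicate 3. The list's mean level was 3.52 to 4.07 on day 7, 3.56 to 3.76 on day 3 and 3.00 to 3.25 on day 28, so days 3 and 7 overlapped. Of 21 macrophage markers 0 were higher (2.97% of all genes were) and 2 lower (1.89%), with a median of -0.18. Without day 7 replicate 2 there were 4 lower. There was 1 lower on leaving out replicate 2 or 4 of day 3, replicate 1, 3 or 4 of day 7, or replicate 1, 3 or 4 of day 28. Against day 3 alone 19 were lower (9.23% of all genes were) and against day 28 alone 16 were higher (9.38%). Their mean level was 7.40 to 7.92 on day 3, 6.01 to 6.36 on day 7 and 4.81 to 5.15 on day 28. Cx3cr1, the fractalkine receptor of monocytes and macrophages, was 3.27 to 3.98 on day 7, 6.41 to 7.35 on day 3 and 2.55 to 3.22 on day 28, with a contrast of -1.23 ± 0.21. Of 9 complement genes 3 were higher (2.97% of all genes were) and 0 lower (1.89%), with a median of 0.32. Against day 3 alone 4 were lower (9.23% of all genes were) and 1 higher (6.02%). Against day 28 alone 8 were higher (9.38%) and 0 lower (8.24%). Their mean level was 7.27 to 7.66 on day 7, 7.80 to 8.07 on day 3 and 6.06 to 6.64 on day 28. Serping1, the inhibitor of the first complement component, rose by 1.03 ± 0.16 to 8.24 to 8.85 on day 7. C3, the central component, passed the contrast (1.20 ± 0.24) with no call against day 3 (0.74, adjusted p = 0.094). Cxcl13, a chemokine that attracts B cells, rose by 2.01 ± 0.34 in the contrast and had no call against day 3 (0.77, adjusted p = 0.232). It was 7.19 to 8.81 on day 7, 6.77 to 7.13 on day 3 and 2.97 to 5.27 on day 28. Of the 12 B cell and plasma cell markers 0 were called in limma (median -0.16), and 1 had an unadjusted p under 0.05.

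Of 23 endothelial markers 0 were higher (2.97% of all genes were) and 1 was lower (1.89%), and 2 were lower without day 7 replicate 2. Against day 28 alone 12 were lower (8.24% of all genes were) and 0 higher (9.38%). The lower member in the contrast was Tie1, a receptor of vessel lining cells (-0.76 ± 0.16). Tie1 was at -0.96 against day 3, where the list's median was 0.24, and had no call against day 28 (-0.55, adjusted p = 0.0508). The mean level of the list was 5.29 to 5.37 on day 7 against 5.06 to 5.26 on day 3 and 5.67 to 6.41 on day 28. Of 16 adipocyte markers 2 were higher (2.97% of all genes were) and 0 lower (1.89%). They were Cidea, a protein of lipid droplets, at 8.02 to 8.90 on day 7, 7.08 to 7.86 on day 3 and 6.52 to 7.60 on day 28 (1.35 ± 0.21), and Car3, a carbonic anhydrase that slow muscle fibres also make (0.54 ± 0.11). Of 13 Schwann cell and myelin markers 1 was higher (2.97% of all genes were) and 0 lower (1.89%). It was Egr2, a transcription factor of myelinating cells that load and growth factors also induce (1.23 ± 0.26). Of 17 neutrophil and early monocyte markers 0 were called in limma, 1 had an unadjusted p under 0.05, 1 was lower without day 7 replicate 2 and 1 was higher without day 28 replicate 3. Mt3, a metallothionein, rose by 1.13 ± 0.17.

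**Figure D5:**
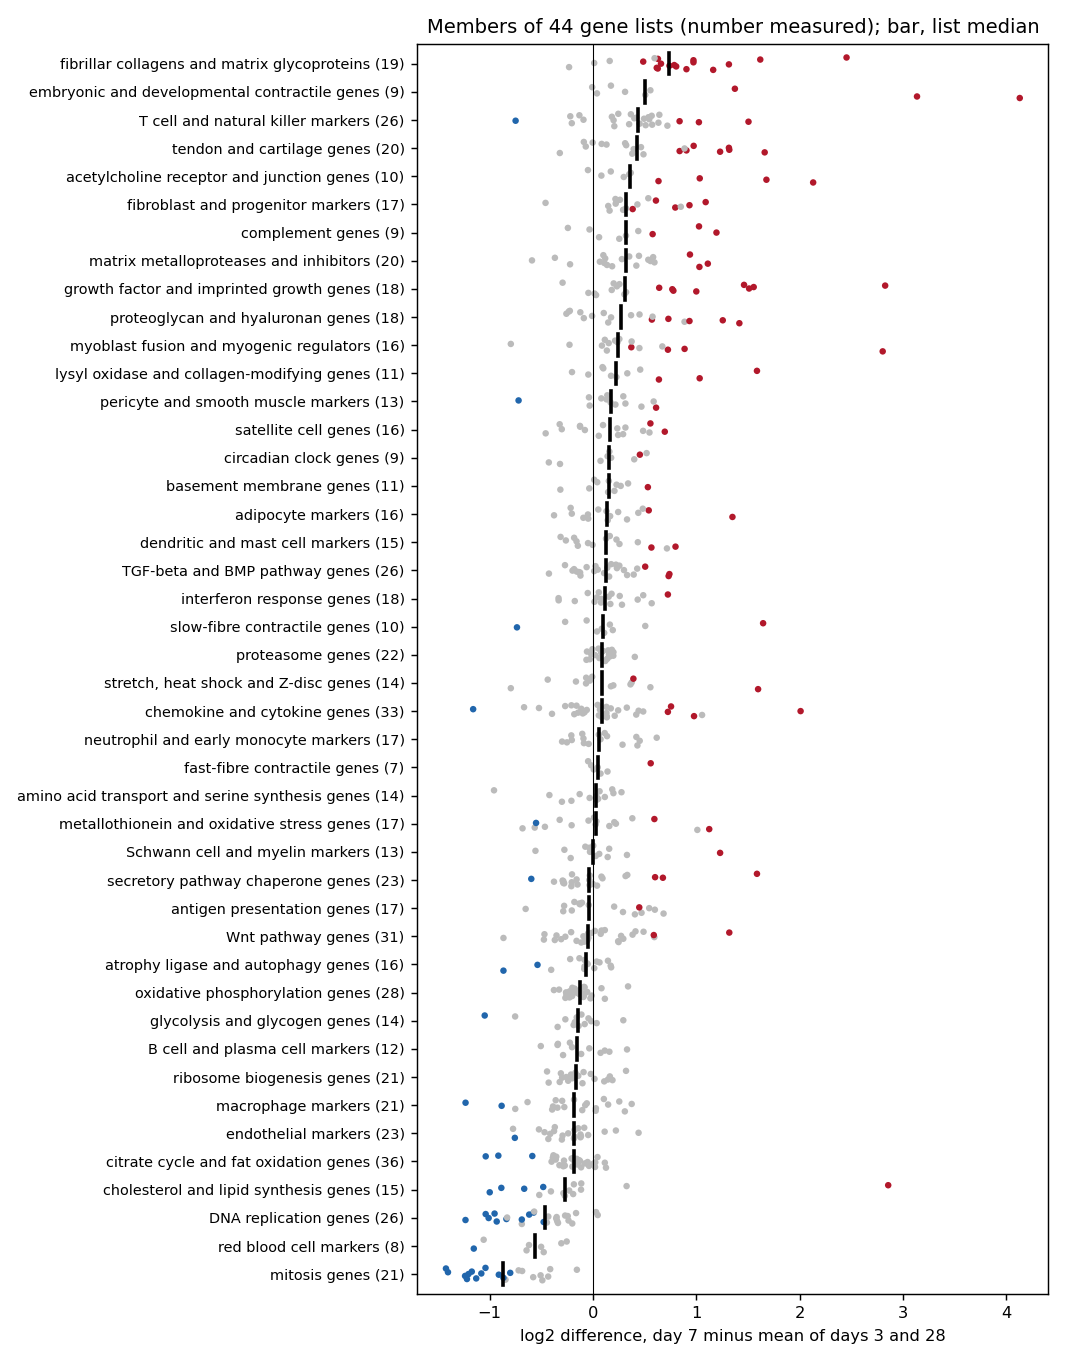
Members of the 44 gene lists by their log2 difference at day 7 from the mean of days 3 and 28, with the number measured in parentheses, 1 point per gene, coloured red where higher and blue where lower, and a black bar at the list median. Medians run from 0.74 for the fibrillar collagens and matrix glycoproteins to -0.87 for the mitosis genes.

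Several programmes gave no call or few. Ribosome biogenesis genes (21, median -0.17), proteasome genes (22, median 0.09), oxidative phosphorylation genes (28, median -0.12) and amino acid transport and serine synthesis genes (14, median 0.03) had 0 members called in limma, and with an unadjusted p under 0.05 they had 5, 1, 5 and 2 members in that order. Of the 21 ribosome biogenesis genes, 12 were lower than at day 3 (9.23% of all genes were) and 0 higher (6.02%). The mean level of that list was 6.64 to 6.89 on day 7, 7.13 to 7.19 on day 3 and 6.52 to 6.69 on day 28. Of the 14 amino acid transport and serine synthesis genes, 5 were lower than at day 3 and 1 higher. For oxidative phosphorylation 16 of the 28 were lower than at day 28 (8.24% of all genes were) and 2 higher than at day 3 (6.02%). Their mean level was 9.79 to 10.04 on day 7, below the 10.27 to 10.39 of day 28. It overlapped the 9.43 to 9.90 of day 3. Of 7 fast-fibre contractile genes 1 was higher (2.97% of all genes were), the calsequestrin Casq1, which lost its call without day 7 replicate 4 (0.47). Their median of 0.05 became -0.05 under cyclic loess. Among the panel genes without a call, Myh4, the fast IIb myosin heavy chain (0.07 ± 0.18), and Myh7, the slow one (0.11 ± 0.23), stood near 0 in the contrast. For Myh7 this was the balance of 1.02 ± 0.26 against day 3 and -0.80 ± 0.26 against day 28. Mstn, the growth inhibitor myostatin (0.18 ± 0.27), and Ppargc1a, a coactivator of mitochondrial genes (0.05 ± 0.16), did not pass either. The Ppargc1a value was again a balance, of 0.99 ± 0.19 against day 3 and -0.90 ± 0.19 against day 28, both called. Against day 0, Ppargc1a at day 7 was at -1.39 (adjusted p = 1.92e-05).

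Against control muscle, the 179 genes above both days were mostly raised. At day 7, 148 of them were higher than at day 0 (16.9% of all genes were), 0 were lower and 31 showed no call. For 82 of the 179, day 7 was the only time point with a call against day 0, as for Klk1, Scd, Dlk1, Chrna1 and Chrng. This pattern was not counted over all genes. Above day 0 stood 54 of the 179 at day 3 already (21.7% of all genes did) and 42 at day 28 (6.29%). Below day 0 stood 23 of the 179 at day 3 (19.6% of all genes did) and 11 at day 28 (2.8%), among them Myh3. Of the 37 genes below both days, 17 were below day 0 at day 7 (14.9% of all genes were), 0 were above it and 20 showed no call. The comparisons with days 3, 28 and 0 share the same day 7 arrays, so these counts are not independent of how the genes were selected.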

How the data were processed

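The deposited values were log2 expression per transcript cluster from the Rat Gene 2.1 ST array, a 1-colour Affymetrix array, hybridised with cDNA from 400 ng of total RNA per the labels. RMA and the packages oligo and limma are named in the submitters' processing notes. Their versions and a genome build are not given in the sources used here. No further normalization was applied. Array intensity over background, rather than read depth, and the number of arrays limit the precision. Within a day, arrays correlated across clusters at r = 0.985 to 0.990 (a description, clusters are not replicates).

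Of 36685 clusters 14824 had 1 gene symbol, 829 had several and 21032 were not in the annotation table. For 14670 of the 1-symbol clusters the gene ID was found in RefSeq, and 0 symbols changed through it. This left 14557 genes. With limma 3.58.1, means of the 4 days were fitted to all 16 arrays (R 4.3.3, eBayes without trend, 12 residual and 4.99 prior degrees of freedom), so that all 4 days share 1 estimate of the spread. The contrast was day 7 minus the mean of days 3 and 28, with weights of 0.5 each, with Benjamini-Hochberg adjustment over all genes and calls at adjusted p under 0.05. A gene stood above or below both days where its differences from day 3 and from day 28 were both called with the same sign. The steps were tested on simulated data.

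The named genes are the 12 largest rises and falls beyond both days without overlap of arrays, up to 4 called members of each of 44 lists by size, 18 measured genes of a fixed panel of 25, and the promoters of related genes above both days. Predicted symbols were passed over, and 9 genes were named after their values were seen. The comparison, its members and the lists were chosen with earlier results of these data known. Promoter sequences are from RefSeq, assembly GRCr8. Alternatives covered the priors, array weights, dim genes, centring, cyclic loess, the arrays fitted, the choice of cluster, replicate number as a block, the weights of days 3 and 28, a fold minimum and leaving out each array.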

Additional observations from a re-analysis of the deposited data

Results flagged for a closer look

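Of 393 sets of 4 arrays tested, 354 for named genes and 39 for mean levels of gene lists, 20 held 1 array whose gap to its nearest neighbour took up most of the range of its group (Dixon's test), and chance gives about 1 in 20. The 9 genes named after their values were seen were not tested. Values are log2 levels on that array, followed by the range of the other 3 arrays of its day.

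On day 7 replicate 2, the macrophage markers had a mean level of 6.36 against 6.01 to 6.05 and the Schwann cell and myelin markers of 3.88 against 3.59 to 3.64, and Txnrd1, thioredoxin reductase, was at 7.68 against 7.20 to 7.28. The neutrophil genes S100a8 (5.83 against 1.33 to 2.56) and Csf3r, the receptor for granulocyte colony-stimulating factor (5.18 against 3.15 to 3.32), were also high there, but were chosen for that, as were S100a9 and Mmp8, and are given with no test. Of the other day 7 arrays, replicate 1 was high in Scd (9.77 against 8.18 to 8.42), and replicate 3 was low in S100a4 (9.54 against 10.19 to 10.25) and in Serping1 (8.24 against 8.76 to 8.85).

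On day 3, replicate 4 was high in Sln (11.13 against 10.80 to 10.84) and low in Casq1 (10.92 against 11.40 to 11.43), Serping1 (7.61 against 8.02 to 8.08) and Ccl5, a T cell chemokine (4.34 against 5.09 to 5.22). Replicate 3 was high in Trim63 (10.65 against 10.37 to 10.41). On day 28, replicate 1 was high in Tnnt2 (6.10 against 5.09 to 5.19), in Pfkfb3, a regulator of glycolysis (8.75 against 7.72 to 7.75), and in the mean level of the adipocyte markers (5.79 against 5.56 to 5.57), and low in Mmp2 (9.31 against 9.45 to 9.47). Replicate 4 was low in Mmp14 (7.03 against 7.45 to 7.53) and the mean level of the T cell and natural killer markers (3.00 against 3.21 to 3.25) and high in Perm1, a muscle regulator of mitochondrial genes (9.99 against 9.35 to 9.43). Replicate 2 was low in Rrm2, a subunit of ribonucleotide reductase (2.82 against 4.26 to 4.56), and replicate 3 in Cx3cr1 (2.55 against 3.15 to 3.22).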

How the results depend on the processing

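Counts are given in the order higher, lower, above both days and below both days, with 433, 275, 179 and 37 as reported. Leaving out 1 array at a time gave 284 to 439, 146 to 283, 143 to 186 and 22 to 44. The genes below both days numbered 56 with an intensity trend and robust priors, 58 without the dimmest 25% of genes, 89 without the dimmest 50% (lower genes 456), 22 with arrays centred on the brighter 50% of genes and 24 in a fit of the 12 arrays of days 3, 7 and 28. Over all 36685 transcript clusters the counts were 446, 211, 231 and 32, and with a log2 difference of at least 1 they were 113, 38, 47 and 3. The weights of the neighbouring days moved the split of calls most. Weighted by log time (0.621 for day 3 and 0.379 for day 28), 471 genes were higher and 463 lower, and weighted by time (0.84 and 0.16), 650 were higher and 977 lower, so that higher genes were 50.4% and 40% of the calls against 61.2%. Among named genes that were called, 3 changed sign under time weights, Lox to -0.37 (0.64 as reported), Sfrp1 to -0.20 (0.59) and Flt3 to -0.0211 (0.80). Named genes without a call could change sign as well, such as Myog to -0.58 (0.14). The cause was not tested beyond the change of weights itself. Of 117 named genes that were called, 68 were called in the same direction under every alternative, 8 changed only under the time or log-time weights, and 41 changed where an array was left out. The deviations of same-numbered arrays correlated weakly, at -0.0355 to 0.0916 over 24 pairs, 0 of them above 0.1. Among the 4 arrays of the other day, an array correlated best with its own number in 11 of 24. That is more often than a random choice would give, so a weak pairing by number is not excluded. With the replicate number as a fixed block the counts were 407, 262, 182 and 38, and as a random block 438, 287, 181 and 38 (consensus correlation 0.00736). Dim signal limits the sizes of differences where a group lies near the bottom of the range.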

Other observations

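The 21032 transcript clusters outside the annotation table, which carry no gene name here, were included in the fit over all clusters. There 157 of them were higher at day 7 than the mean of days 3 and 28 and 74 were lower, with 88 above both days and 12 below both. Over all 36685 clusters in that fit the counts were 446, 211, 231 and 32 in the same order. Each count was thus a smaller share of the unnamed clusters than of all clusters.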
